A study of Mus musculus with 14 samples.

Results

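IL-7 was withdrawn for 24 h from a mouse pre-B cell line kept in 4-hydroxytamoxifen (4OHT), and the RNA was compared with that of cells fed IL-7 over the same 24 h. The comparison rests on 4 of the 14 arrays of the study: 2 without IL-7, called the withdrawn arrays here, and 2 with it, called the fed arrays. One array of each kind came from each of 2 independent experiments, exp1 and exp2. All 19938 genes with a probe set of a single symbol were compared, each through its brightest probe set. The cells, BH1-Bcl2-Ik1ER, descend from the Ikaros-deficient BH1 line and carry 2 retroviruses, one for Bcl2 and one for Ikaros joined to an estrogen receptor, and cells with both were sorted. 4OHT at 100 nM switches the fusion on, and all 4 arrays compared here had it for the whole 24 h. IL-7 was supplied as 8% medium conditioned by J558L cells that overexpress it, so withdrawal also removed whatever else that medium held. The other groups had 2 arrays each: time 0, 6 h with 4OHT with or without IL-7, and 24 h without 4OHT with or without IL-7. Cells lacking the fusion were not analysed here, so an effect of 4OHT itself and one of the fusion cannot be told apart, and the line stands for 1 sorted population.

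IL-7 is the cytokine on which mouse pro-B and large pre-B cells depend for growth. Its receptor, made of Il7r and the common gamma chain, activates the kinases JAK1 and JAK3, which phosphorylate STAT5. STAT5 drives feedback inhibitors such as Cish and growth genes such as Ccnd2, while the PI3K and AKT arm of the signal holds FoxO factors out of the nucleus. When the signal wanes, large pre-B cells leave the cell cycle, become small pre-B cells and rearrange the immunoglobulin light chain genes. Ikaros is a zinc finger factor of lymphoid cells that favours the same transition and opposes proliferation of pre-B cells.

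The values are log2 expression levels after robust multi-array averaging, and a difference is the mean of the withdrawn arrays minus that of the fed arrays, with the standard error (SE) of the limma fit and n = 2 arrays per group. A rise or fall is thus relative to fed cells of the same time and 4OHT setting, not to time 0. Genes were taken to pass below 0.05 after Benjamini-Hochberg adjustment of p over all genes. Array medians lay between 7.23 and 7.43, and the median SE of a difference was 0.0912. The 11 pre-B markers averaged 12.06 and 12.04 in the fed arrays and 12.29 and 12.30 in the withdrawn ones, above the median of all values, 7.33. The 6 T cell markers averaged 6.28 to 6.37 over the 4 arrays, each below that median. The NK, myeloid and erythroid and megakaryocyte lists also averaged below it. The 4 plasma cell markers averaged 7.66 to 7.75 and the 6 stromal markers 7.94 to 8.14, above that median, with 2 members of each list below it. Of 34 markers of T, NK, myeloid, erythroid, megakaryocyte, plasma and stromal cells, 4 rose and 2 fell. Neither share exceeded that of all genes (12.8% and 11.5%), and the part of these markers in the results below was not tested. The NK marker Klrb1c moved most, from 6.41 and 5.62 in the fed arrays to 7.84 and 6.63 in the withdrawn ones, and it did not pass without the withdrawn exp1 array (adjusted p = 0.143) or without the fed exp2 array (adjusted p = 0.151). Itga2b, of megakaryocytes, and Xbp1, of plasma cells, both among the rises, did not pass when any 1 of the 4 arrays was left out. The other calls were a rise of 1 myeloid marker and falls of 1 plasma (-0.785) and 1 stromal marker (-0.881). None of the fits with 1 array left out ended these calls. Ikzf1, the Ikaros gene, read 13.09 and 13.10 in the fed arrays and 13.31 and 13.38 in the withdrawn ones. That difference, 0.25 ± 0.07 (adjusted p = 0.0239), did not pass with only the 4 compared arrays in the fit, nor without the withdrawn exp2 array or either fed array. Whether its probes read the fusion, the cell's own gene or both was not tested. Bcl2 read 8.43 in both fed arrays and 8.41 and 8.56 in the withdrawn ones, a difference of 0.06 ± 0.07 (adjusted p = 0.631). In bulk RNA, fewer cells of a kind and less RNA per cell cannot be told apart.

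Genes of growth and division were among the largest falls after 24 h without IL-7. Of the 19938 genes, 4846 passed (24.3%), of which 2552 rose (12.8%) and 2294 fell (11.5%). The falls were larger: 575 genes fell at least 2-fold (2.88%) and 97 at least 4-fold, while 35 rose at least 2-fold (0.176%) and 0 rose 4-fold. The median fall among passing genes was -0.61 and the median rise 0.38, beside a median of 0.058 over all genes. Both withdrawn arrays lay above both fed arrays in 36.6% of genes and below both in 20.9%. All 4846 passing genes had the same sign of difference in exp1 and exp2, as did 75.9% of all genes.

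**Figure D1:**
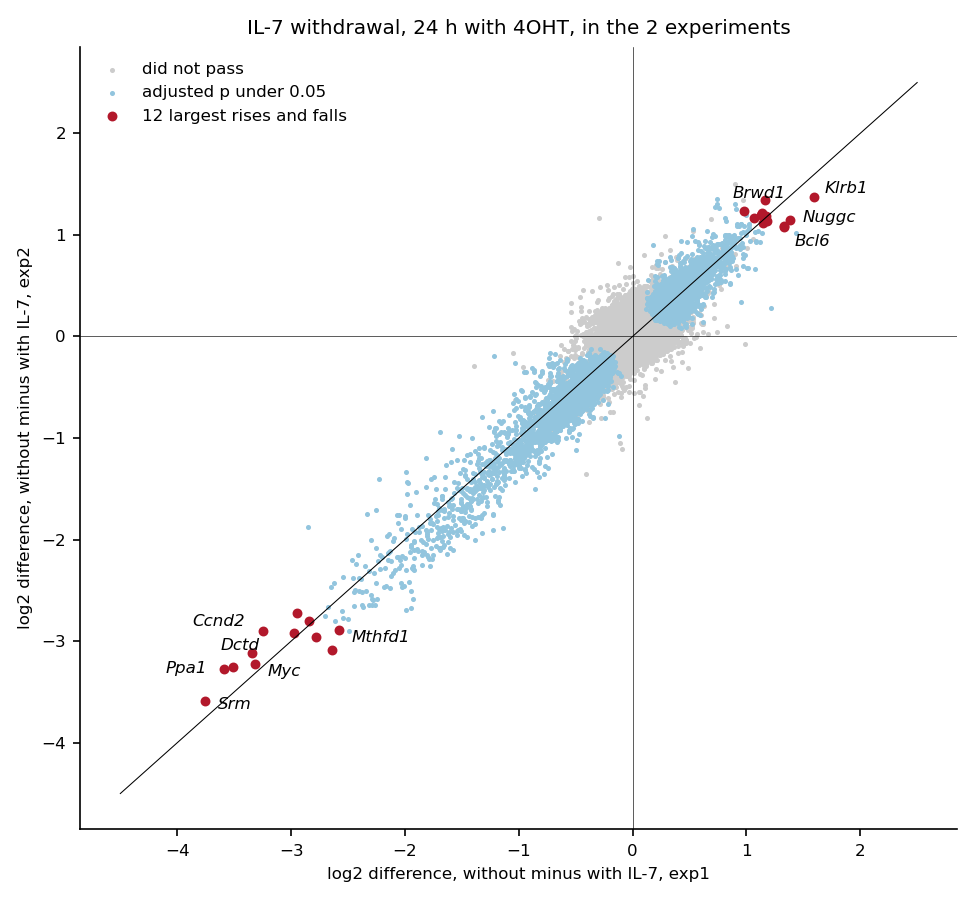
Difference between the withdrawn and the fed array of exp1 (horizontal axis) and of exp2 (vertical axis), each in log2 units, with 1 point per gene, passing genes in light blue and the 12 largest rises and falls in red. The points lie along the diagonal (correlation across genes 0.915), and the falls reach much further from 0 than the rises.

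The 12 largest falls were Srm, Ppa1, Dctd, Myc, Chek1, Ccnd2, Hells, Mettl1, Jpt2, Exo1, Uhrf1 and Mthfd1, and all lay between -3.67 and -2.73. Srm, spermidine synthase, fell from 12.31 and 12.30 in the fed arrays to 8.55 and 8.71 in the withdrawn ones, a difference of -3.67 ± 0.15 or 12.7-fold (adjusted p = 6.31e-08). Ppa1, an inorganic pyrophosphatase, fell from 10.38 and 10.34 to 6.79 and 7.07. In both genes the fed arrays lay more than 3 log2 units above the withdrawn ones. Chek1, the checkpoint kinase of replication stress, fell from 11.03 and 10.94 to 7.69 and 7.82. Hells, a chromatin remodelling helicase, and Uhrf1, which guides maintenance DNA methylation, fell by 2.95 and 2.82. The exonuclease Exo1 fell by 2.83, and Mettl1, which methylates tRNA, by 2.87.

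The 12 largest rises were Klrb1, Nuggc, Adamtsl2, Pygm, Bcl6, Brwd1, Sgtb, Chst15, Derl3, Cstad, Atp6v0a1 and Hpgds, between 1.48 and 1.11. Klrb1, of a family of lectin-like receptors, headed them, but the experiments stood far apart: 9.63 and 8.51 in the fed arrays and 11.22 and 9.88 in the withdrawn ones. Its difference of 1.48 ± 0.46 (adjusted p = 0.0356) did not pass without the withdrawn exp1 array (0.81, adjusted p = 0.262) or without the fed exp2 array (0.92, adjusted p = 0.253). Nuggc, a nuclear GTPase of germinal centre B cells, rose from 7.50 and 7.52 to 8.88 and 8.66. Derl3, of the pathway that removes misfolded proteins from the endoplasmic reticulum, rose by 1.16 ± 0.12, and Atp6v0a1, a subunit of the vacuolar proton pump, by 1.12 ± 0.12. Pygm, the muscle form of glycogen phosphorylase, rose by 1.21 ± 0.14, and Hpgds, which makes prostaglandin D2, by 1.11 ± 0.10.

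Of 13 genes of the receptor, JAK kinases and STAT factors, 7 rose and 1 fell, with a median of 0.268. The rises were Stat3, Sh2b3, Jak2, Il7r, Tyk2, Stam2 and Jak1. Jak2 did not pass without the withdrawn exp1 array (0.32) or the fed exp2 array (0.35), nor did Jak1 without the withdrawn exp1 or either fed array. Il7r rose from 12.80 and 12.85 to 13.23 and 13.25 (0.42 ± 0.09, adjusted p = 0.00412), and Stat3 by 0.55 ± 0.08 (adjusted p = 0.000337). Stat5a and Stat5b differed by 0.20 and 0.26 and did not pass (adjusted p = 0.125 and 0.0519), but passed with the experiment as a block (adjusted p = 0.0398 and 0.00693). Ptpn11, the phosphatase SHP2, was the single fall (-0.21), and it did not pass when any 1 of the 4 arrays was left out.

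Among 22 genes known to be induced by STAT5 or to act in its feedback, 5 fell (Ccnd2, Socs2, Cish, Spred2 and Spry2), 2 rose (Socs5 and Socs7, with 6 rises when the experiment was a block), and the median was -0.015. The share of rises lay below that of all genes, 12.8%. The rises numbered 1 without either withdrawn array or the fed exp2 array and 3 without the fed exp1 array, and Spry2 did not pass without the fed exp1 array (adjusted p = 0.075). Socs2, an inhibitor of cytokine signalling, fell from 12.77 and 12.76 to 10.79 and 11.21 (-1.76 ± 0.12, adjusted p = 1.29e-06). Cish, the classical STAT5 target, fell from 8.78 and 8.57 to 7.55 and 7.51 (-1.15 ± 0.08, adjusted p = 2.16e-06). Both withdrawn arrays lay below both fed arrays for each, as in 20.9% of all genes. Bcl6, a repressor that STAT5 represses in pre-B cells, moved the other way, from 8.74 and 8.82 to 10.06 and 9.90 (1.20 ± 0.09, adjusted p = 2e-06). At time 0 Bcl6 read 10.16 and 10.05, close to the withdrawn arrays, and the fed arrays lay below that level. The letters TTCNNNGAA, the core that STAT factors bind, were searched on both strands of RefSeq promoter windows running from 250 bases before to 50 bases after the gene's start, on the GRCm38.p6 assembly. They stood in 3 of 16 STAT5-induced genes with a window (18.8%) and in 8.99% of the 15614 genes that have one. Among lists described below, the same letters stood in 22.2% of B lineage transcription factors (6 of 27) and 21.1% of replicative helicase genes (4 of 19). The share was 2.7% in mitotic genes (1 of 37), 7.69% in all falls and 7.8% in all rises. The stretches of Cish and Bcl6 are shown because these genes moved in opposite directions, with matches in capitals, on the plus strand at chr9:107296634-107296678 and on the minus strand at chr16:23981338-23981476.
Cish: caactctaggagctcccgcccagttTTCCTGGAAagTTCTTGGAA
Bcl6: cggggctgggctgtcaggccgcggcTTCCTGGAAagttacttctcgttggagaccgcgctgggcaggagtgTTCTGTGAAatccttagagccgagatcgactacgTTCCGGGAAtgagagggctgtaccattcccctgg

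**Figure D2:**
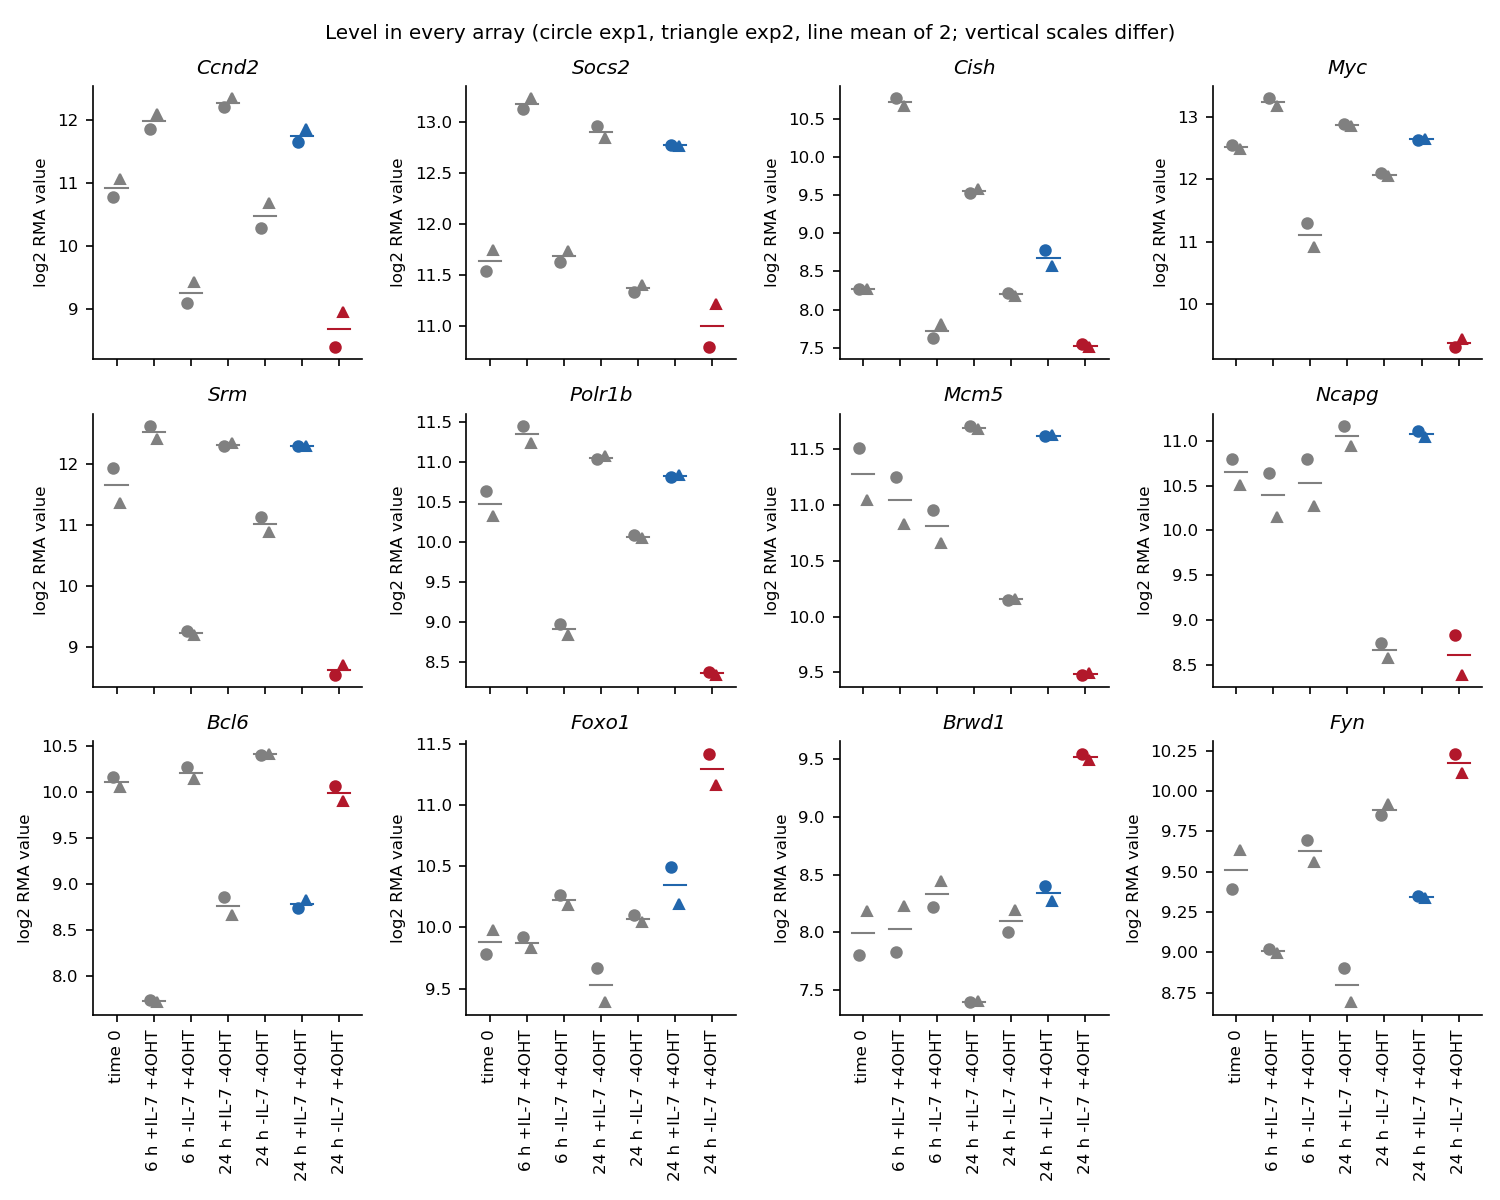
Log2 level of 12 genes on each of the 14 arrays of the study, by group along the horizontal axis, with circles for exp1, triangles for exp2 and a line at the mean; fed arrays of 24 h with 4OHT are blue, withdrawn ones red and all others grey. Srm and Myc fell by more than 3 log2 units between blue and red, Cish by 1.15 and Bcl6 rose by 1.20. In each of these the blue and red arrays did not overlap. Among all genes both red arrays lay above both blue ones in 36.6% and below in 20.9%.

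Myc fell by far the most within its own network. It read 12.63 and 12.66 in the fed arrays and 9.31 and 9.43 in the withdrawn ones, a difference of -3.27 ± 0.11 or 9.65-fold (adjusted p = 2.18e-08). MYC pairs with MAX to activate genes of growth, and the MXD and MNT proteins compete for MAX and repress. Of 12 network genes, 3 fell (Myc, Mxd3 and Mycn) and 4 rose (Mlxip, Mxd1, Mxd4 and Mnt). Mxd1 rose from 10.41 and 10.30 to 11.05 and 11.01 (0.68 ± 0.08) and Mlxip by 0.82 ± 0.09, while Mxd3, whose mRNA is linked to dividing cells, fell by 0.91 ± 0.14. Mxd4 did not pass without the withdrawn exp1 array (0.35) or the fed exp2 array (0.31). Max differed by 0.01 (adjusted p = 0.932). In polyamine synthesis, Odc1, the ornithine decarboxylase that feeds Srm, fell from 10.77 and 10.67 to 8.83 and 8.00 (-2.31 ± 0.21), and Sat1, which starts polyamine breakdown, rose by 0.67 ± 0.14. Of 8 genes of that pathway 4 fell and 1 rose.

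Of 44 genes of ribosome biogenesis and RNA polymerase I, 41 fell, 28 of them at least 2-fold, and the median was -1.21. Polr1b, the second largest subunit of RNA polymerase I, fell from 10.82 and 10.84 to 8.38 and 8.34 (-2.47 ± 0.10 or 5.53-fold, adjusted p = 6.14e-08). The largest subunit, Polr1a, fell by 1.35 ± 0.09, the nucleolar phosphoprotein Nolc1 by 1.73 ± 0.11 and fibrillarin, Fbl, which methylates ribosomal RNA, by 1.57 ± 0.11. Nucleolin, Ncl, fell by 0.58 ± 0.11. The 3 that did not pass were Polr1d (-0.21), Znrd1 (-0.04) and Ubtf (0.15), of which Polr1d passed with the experiment as a block (adjusted p = 0.0496). Of 23 ribosomal protein genes, in contrast, 6 fell with a median of -0.12 (10 with the experiment as a block), and 3 fell without the withdrawn exp2 or the fed exp1 array.

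The letters CACGTG, the E-box that MYC and related factors bind, stood in 9 of 39 ribosome biogenesis genes with a promoter window (23.1%) and in 9.5% of all genes with one. They read the same on both strands. They stood also in 31% of the autophagy and lysosome genes described below (9 of 29), and in 14.5% of all falls and 12.6% of all rises. Nop2 (-1.46 ± 0.12), which methylates the large ribosomal RNA, and Pes1 (-0.70 ± 0.09), of the complex that matures the large subunit, carry the match near their starts, as does Ppa1 among the largest falls. The stretches lie on the plus strand of GRCm38.p6 at chr6:125131798-125131853, chr11:3963952-3963994 and chr10:61648456-61648511, and capitals mark the E-box.
Nop2: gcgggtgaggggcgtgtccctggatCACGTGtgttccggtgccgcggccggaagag
Pes1: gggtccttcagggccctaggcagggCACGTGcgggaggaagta
Ppa1: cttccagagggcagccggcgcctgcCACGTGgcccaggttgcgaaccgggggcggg

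Genes that supply nucleotides, charged tRNAs and amino acids fell too. Of 29 nucleotide synthesis genes 27 fell, 16 of them at least 2-fold, with a median of -1.63, and the others, Rrm2b and Ctps2, rose but did not pass without the withdrawn exp1 or the fed exp2 array. Dctd, which makes deoxyuridine monophosphate for thymidylate synthesis, fell from 11.16 and 11.12 to 7.65 and 7.87 (-3.38). Tyms, thymidylate synthase, fell from 10.95 and 11.08 to 8.30 and 8.61 (-2.56 ± 0.17), and Ctps, CTP synthase, by 2.71 ± 0.17. In the purine branch, Atic fell by 2.43 ± 0.10 and Gart by 2.11 ± 0.11. Of 18 aminoacyl-tRNA synthetases 16 fell, with a median of -0.70. In the group of ATF4, amino acid transport and serine synthesis, 13 of 26 genes fell and 1 rose (median -0.249). Slc7a5, the large neutral amino acid transporter, fell from 11.49 and 11.55 to 8.81 and 8.89 (-2.67 ± 0.16), whereas Ddit3, a stress factor induced by ATF4, rose by 0.60 ± 0.11.

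In glycolysis 10 of 21 genes fell (median -0.38), among them Pgk1 (-1.41), Hk2 (-1.35 ± 0.11) and Ldha (-1.10 ± 0.12), the latter being the first and last enzymes of the path to lactate. The glucose transporter Slc2a1 differed by -0.13 (adjusted p = 0.472). Of 29 genes of the mitochondrial ribosome and protein import 21 fell (median -0.57), among them Mrpl12 (-0.99 ± 0.15) and Tomm40 (-0.78 ± 0.11). Of 17 heat shock and chaperonin genes 11 fell, with Hspd1, the mitochondrial chaperone HSP60, going from 12.49 and 12.48 to 10.78 and 10.50. In cholesterol synthesis 15 of 21 genes fell, led by Idi1 (-1.59 ± 0.16) and Sqle (-1.49 ± 0.13). That count was 9 without the withdrawn exp2 array and 8 without the fed exp1 array. Of 31 genes of complex I and oxidative phosphorylation 14 fell (23 with the experiment as a block), but 4 without the withdrawn exp2 array and 6 without the fed exp1 array.

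**Figure D3:**
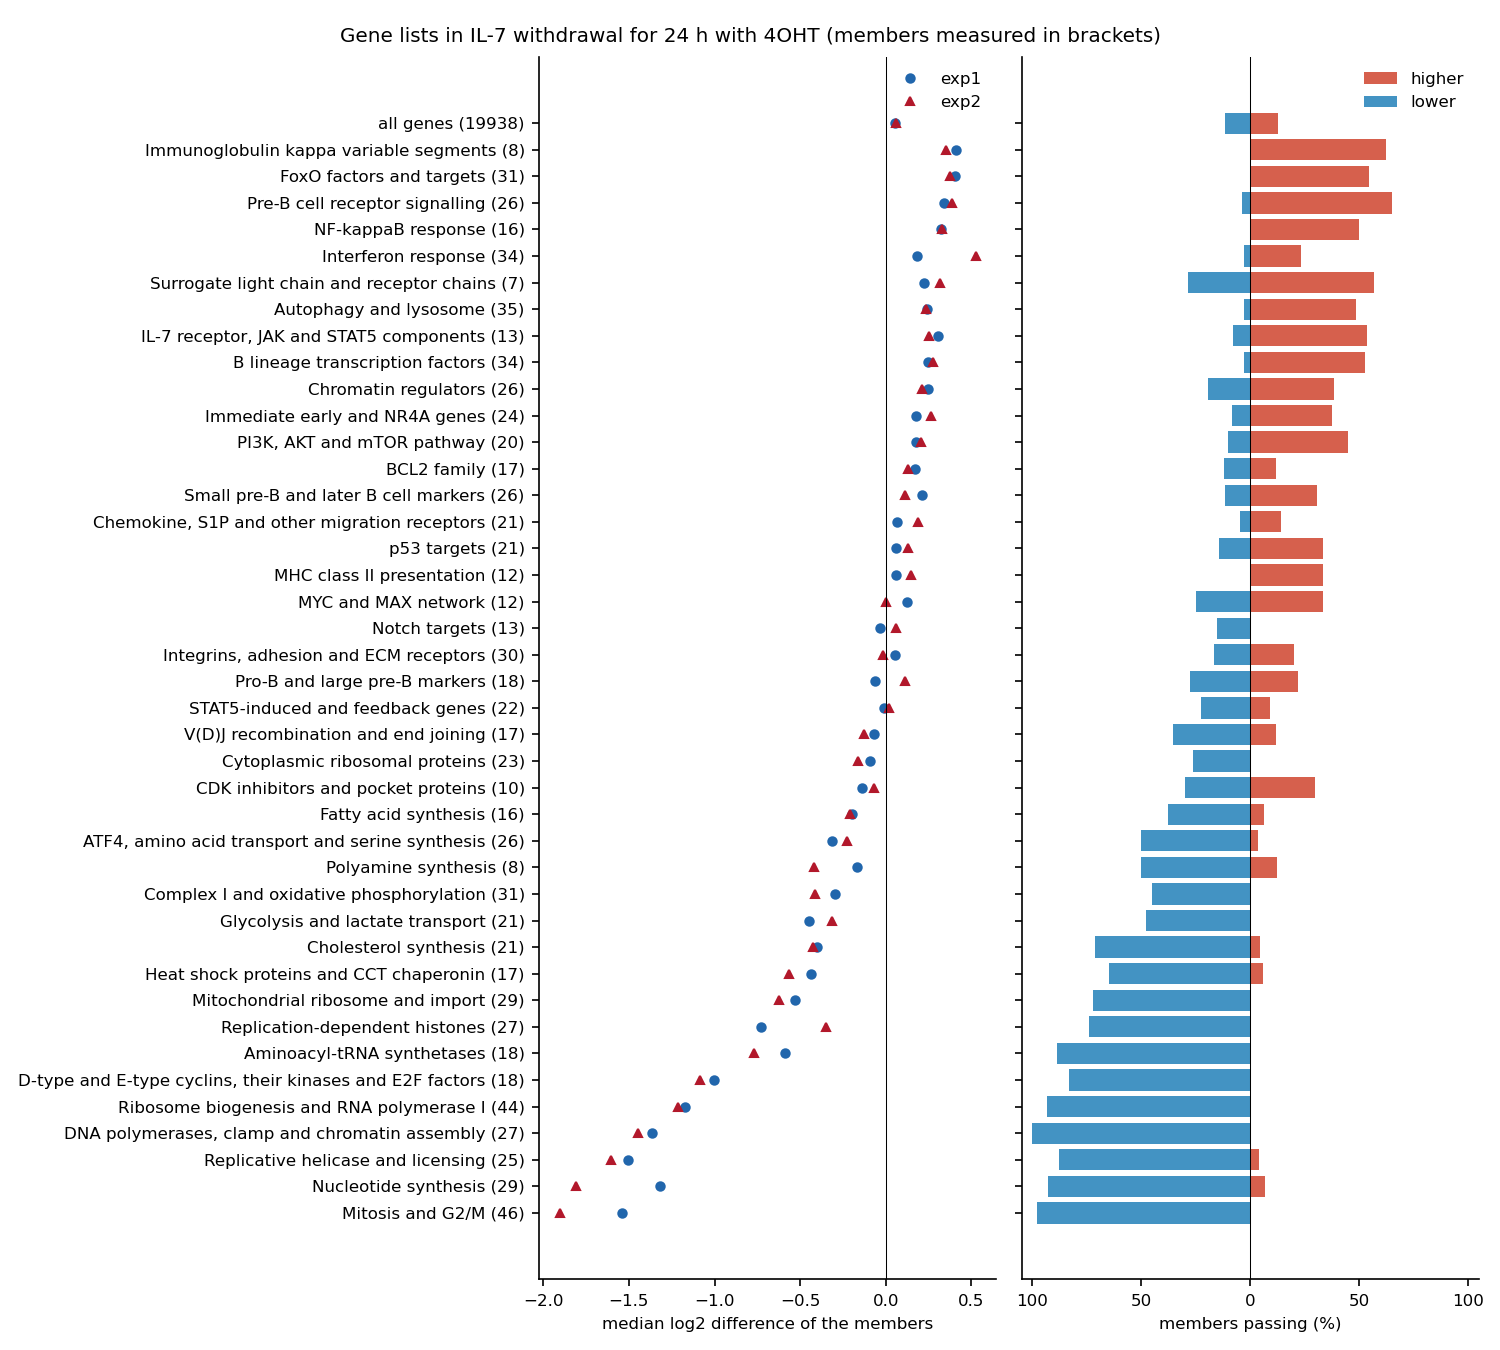
Gene lists ordered by their median difference after 24 h without IL-7 under 4OHT, with the median log2 difference in exp1 (circles) and exp2 (triangles) on the left and the percentage of measured members that rose (red) or fell (blue) at an adjusted p under 0.05 on the right. Mitosis, DNA polymerases, ribosome biogenesis, nucleotide synthesis, tRNA synthetases and the helicase list reach the largest shares of falls, against 11.5% of all genes, and pre-B receptor signalling and FoxO targets had the 17 rises each given in the text, against 12.8% of all genes.

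Ccnd2, cyclin D2, went from 11.65 and 11.86 to 8.40 and 8.96 (-3.07 ± 0.19 or 8.4-fold, adjusted p = 7.96e-07). Ccnd1 fell by 1.52 ± 0.09 and Ccnd3, the D-type cyclin that pre-B cells need, by 0.40 ± 0.07, from 11.30 and 11.31 to 10.95 and 10.86. Ccne1, cyclin E1, fell by 2.45 ± 0.20 and E2f1 by 1.35 ± 0.11. Altogether 15 of 18 genes of D- and E-type cyclins, their kinases and E2F factors fell, with a median of -1.05. Among 10 genes of cyclin-dependent kinase inhibitors and pocket proteins, 3 rose (Cdkn1b, Rb1 and Rbl2) and 3 fell (Rbl1, Cdkn3 and Cdkn2a). Rbl2 did not pass without the withdrawn exp1 or either fed array, nor Cdkn2a without either exp1 array. Cdkn1b, the inhibitor p27, rose from 11.63 and 11.43 to 12.13 and 11.94 (0.50 ± 0.10, adjusted p = 0.00309). Its withdrawn arrays both lay above both fed arrays, as in 36.6% of all genes.

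Of 25 genes of the replicative helicase and its loading 22 fell, 18 of them at least 2-fold, with a median of -1.61. All 6 subunits of the MCM2-7 helicase fell, between -2.14 and -1.47, and all 4 GINS subunits, between -2.53 and -0.74. Mcm5 went from 11.62 and 11.63 to 9.48 and 9.49 (adjusted p = 1.99e-06). Of the 6 origin recognition subunits 3 fell and 1, Orc4, rose by 0.25, a call that ended when any 1 of the 4 arrays was left out. All 27 genes of DNA polymerases, the sliding clamp and chromatin assembly fell, 19 of them at least 2-fold (median -1.37), among them Pole2 (-2.45 ± 0.11), Chaf1b (-1.48 ± 0.14) and the clamp Pcna (-1.15 ± 0.10). Of 27 replication-dependent histone genes, whose mRNAs are made in S phase, 20 fell (median -0.60), but 12 without the withdrawn exp1 array and 13 without the fed exp1 array.

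The E2F-type letters TTTGGCGC, TTTCGCGC or TTTCCCGC, on either strand, stood in 9 of 19 helicase genes with a promoter window (47.4%), in 8 of 24 polymerase genes (33.3%) and in 2.99% of all genes with one. The share was 10.3% in ribosome biogenesis genes and 10.8% in the mitotic genes described below. It was 11.8% in falls of at least 2-fold, 7.48% in all falls and 2.41% in all rises. Orc1, which fell from 8.62 in both fed arrays to 6.42 and 6.46, and Mcm5 are shown as examples of that group. They lie on the plus strand of GRCm38.p6 at chr4:108579402-108579459 and chr8:75109331-75109392. Capitals mark the match, which in Mcm5 consists of 2 overlapping matches on opposite strands.
Orc1: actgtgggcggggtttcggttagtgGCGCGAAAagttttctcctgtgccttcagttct
Mcm5: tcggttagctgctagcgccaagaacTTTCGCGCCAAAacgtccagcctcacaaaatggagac

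Of 46 genes of mitosis and the G2/M transition 45 fell, 41 of them at least 2-fold, with a median of -1.72 (-1.54 in exp1 and -1.90 in exp2). The exception was the phosphatase Cdc25b (-0.24, adjusted p = 0.272). Ncapg, a subunit of condensin, fell from 11.10 and 11.04 to 8.84 and 8.40 (-2.45 ± 0.20 or 5.48-fold). The kinases Cdk1, Plk1, Aurkb and Ttk fell by 1.93, 1.77, 1.29 and 2.26, and cyclin A2, Ccna2, by 1.56. All 6 mitotic kinesins of the list fell, between -2.25 and -1.33. In Ttk, a kinase of the spindle checkpoint, the withdrawn arrays stood apart from each other, at 8.01 and 7.35, and both lay below 9.94 and 9.93 in the fed arrays. The letters TTTGAA, the cell cycle homology region of late cell cycle promoters, stood on either strand in 25 of 37 mitotic genes with a window (67.6%) and in 17.3% of all genes with one. The share was 26.3% in helicase genes and 16.7% in polymerase genes. It was 25.2% in falls of at least 2-fold, 18.6% in all falls and 12.9% in all rises. Ncapg and Ttk, described above, carry it in either orientation, on the plus strand at chr5:45669870-45669925 and chr9:83834671-83834708 of GRCm38.p6, with the match in capitals.
Ncapg: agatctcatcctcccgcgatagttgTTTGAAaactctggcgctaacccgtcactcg
Ttk: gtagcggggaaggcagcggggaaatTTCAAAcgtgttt

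Of 31 FoxO factors and targets 17 rose (median 0.40), against 12.8% of all genes, and 11 rose without the withdrawn exp1 or the fed exp2 array. Foxo1 itself rose from 10.49 and 10.20 to 11.42 and 11.17 (0.95 ± 0.12, adjusted p = 0.000148) and Foxo3 by 0.44 ± 0.07. Txnip, an inhibitor of thioredoxin and glucose uptake, rose from 11.72 and 11.82 to 12.68 and 12.84. Pik3ip1, an inhibitor of PI3K, rose by 0.64 ± 0.11, and S1pr1, the sphingosine 1-phosphate receptor, by 0.84 ± 0.13. The forkhead letters TGTTTAC stood on either strand in 3 of 24 FoxO genes with a window (12.5%) and in 3.54% of all genes with one. Helicase genes had them in 2 of 19 cases (10.5%) and polymerase genes in 0 of 24. Txnip carries them in reverse, as the capitals show, on the plus strand at chr3:96557811-96557867 of GRCm38.p6.
Txnip: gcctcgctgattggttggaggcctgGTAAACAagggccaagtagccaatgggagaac

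Autophagy and lysosome genes rose in 17 of 35 cases, led by the sialidase Neu1 (0.89 ± 0.11), and Gla, a lysosomal galactosidase, fell by 0.89 ± 0.14. The count of rises was 8 without the withdrawn exp1 array, 8 without the fed exp2 array and 11 without the fed exp1 array. In the PI3K, AKT and mTOR pathway 9 of 20 genes rose and 2 fell, but 4 or 5 rose when any 1 of the 4 arrays was left out, and the falls numbered 1 without the withdrawn exp2 array and 3 without the withdrawn exp1 array. The 2 falls of the main fit in that pathway lay near the share of all genes, 11.5%. Deptor, an inhibitor of mTOR, fell by 0.90 ± 0.11. Of 17 BCL2 family genes 2 rose and 2 fell, and 7 rose with the experiment as a block or 5 without the withdrawn exp2 array. The 2 rises and 2 falls of the main fit lay near the shares of all genes, 12.8% and 11.5%. Bmf, which promotes cell death, rose from 11.20 and 11.06 to 11.98 and 11.96 (0.84 ± 0.11). Bcl2l11, encoding BIM, rose by 0.29 ± 0.07 (adjusted p = 0.0143) but did not pass without the withdrawn exp1 or either fed array. The 2 falls, Bid and Bak1, did not pass without the withdrawn exp2 or the fed exp2 array, nor Bak1 without the fed exp1 array. Of 21 p53 targets 7 rose and 3 fell (Gtse1, Aen and Phlda3), the falls near the share of all genes, 11.5%. Phlda3 did not pass when any 1 of the 4 arrays was left out. Fewer of the rises passed without the withdrawn exp1 or either fed array.

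Of 26 genes of pre-B cell receptor signalling 17 rose and 1 fell, with a median of 0.36, and 12 rose without the fed exp2 array. The kinase Fyn rose from 9.35 and 9.33 to 10.23 and 10.11 (0.83 ± 0.10, adjusted p = 6.45e-05). Syk, the kinase that couples the receptor to the adaptor Blnk, rose from 10.87 and 10.78 to 11.43 and 11.39, and Blnk by 0.55 ± 0.09. Rasgrp3, an activator of RAS, rose by 0.78 ± 0.11 and the kinase Btk by 0.36 ± 0.11, while Vav3, an exchange factor for RAC, fell by 0.53 ± 0.08. In each of these genes both withdrawn arrays lay on the same side of both fed arrays. Among all genes they lay above in 36.6% and below in 20.9%.

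The receptor's own chains split. Vpreb1 and Vpreb2, which encode the V-like part of the surrogate light chain, fell by 0.46 ± 0.08 and 0.48 ± 0.08, and Igll1, the other part, differed by -0.11 (adjusted p = 0.283). Vpreb1 went from 10.31 and 10.37 to 9.79 and 9.97. Vpreb3, a related chaperone-like protein, rose by 0.44 ± 0.08, and the signalling chain Cd79b by 0.30 ± 0.06. Cd79a and Ighm were the other rises among these 7 genes. Cd79a did not pass without the withdrawn exp1 or the fed exp2 array, and Ighm did not pass when any 1 of the 4 arrays was left out. Ighm read 7.2 and 7.1 in the fed arrays and 7.4 and 7.5 in the withdrawn ones, around the median of all values, 7.33.

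Of 34 B lineage transcription factors 18 rose and 1, Id3, fell (2 without the withdrawn exp2 array), and the rises numbered 11 without the withdrawn exp2 array, 9 without the fed exp1 array and 9 without the fed exp2 array. Besides Foxo1, Klf3 rose by 0.80 ± 0.09, Pou2f2, the octamer factor OCT2, by 0.72 ± 0.10, and Spi1, encoding PU.1, by 0.55 ± 0.10. Pax5 and Ebf1, which define the B lineage, rose by 0.44 and 0.40, but Pax5 did not pass without the fed exp2 array (adjusted p = 0.0607) nor Ebf1 without the fed exp1 array (adjusted p = 0.0548). Irf4, which favours light chain rearrangement, read 12.21 and 12.17 in the fed and 12.38 and 12.24 in the withdrawn arrays and did not pass (adjusted p = 0.407). Brwd1, which in mouse pre-B cells opens the kappa light chain locus, rose from 8.40 and 8.27 to 9.54 and 9.49 (1.18 ± 0.14, adjusted p = 8.64e-05). The recombinase genes did not pass: Rag1 differed by 0.10 (adjusted p = 0.418) and Rag2 by -0.07 (adjusted p = 0.691), and both read below 6 on all 4 arrays, under the median of all values. Of 8 kappa variable segments 5 rose (median 0.43), and 2 or 3 when any 1 array was left out. Of 17 genes of recombination and end joining 6 fell and 2 rose (4 with the experiment as a block, 0 without the withdrawn exp1 or the fed exp2 array, 1 without the withdrawn exp2 array), and the largest fall was Hmgb2 (-1.52 ± 0.17), a chromatin protein of dividing cells that also aids RAG cutting.

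Among 18 markers of pro-B and large pre-B cells 5 fell (Igfbp4, Spn, Vpreb2, Vpreb1 and Cd9) and 4 rose (Il7r, Sox4, Cd93 and Gfra2), with 2 rising without the fed exp2 array. Cd9 did not pass without the withdrawn exp2 or the fed exp1 array. Spn, encoding CD43, fell from 9.33 in both fed arrays to 8.68 and 8.71. Among 26 markers of small pre-B and later cells 8 rose and 3 fell, the falls at the share of all genes, 11.5%, and 4 rose without either withdrawn array and 2 without the fed exp2 array. Of 21 chemokine, sphingosine 1-phosphate and other migration receptors 3 rose (5 without the withdrawn exp1 array) and 1, Cxcr5, fell. The 3 rises of the main fit were near the share of all genes, 12.8%, and the share of falls lay below 11.5%. Cxcr5, the follicular homing receptor, went from 8.65 and 8.04 to 5.80 and 6.17 (-2.36 ± 0.17, adjusted p = 2.07e-06), to below the median of all values. Cxcr4, which holds pre-B cells near stroma, differed by 0.01 (adjusted p = 0.948). Of 30 integrin and adhesion genes 6 rose and 5 fell, and the falls numbered 1 without the withdrawn exp2 or the fed exp1 array. The adhesion counts of the main fit stand beside 12.8% rises and 11.5% falls among all genes, and were not far above those shares. Itga4 rose by 0.70 ± 0.11, whereas Cd44, a receptor for hyaluronan, fell by 1.11 ± 0.12.

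Of 16 NF-kappaB response genes 8 rose (median 0.32), among them Birc3 (0.79 ± 0.10), an inhibitor of apoptosis, and the subunit Rel, which went from 11.59 and 11.54 to 12.23 and 12.31. Of 24 immediate early genes 9 rose and 2 fell (1 without either fed array or the withdrawn exp1 array), among the rises Zfp36l1 (0.74 ± 0.09), which destabilises mRNAs of cell cycle genes. The 2 immediate early falls did not exceed the share of all genes, 11.5%. Of 34 interferon response genes 8 rose and 1 fell, 15 rising with the experiment as a block. The median of that list was 0.18 in exp1 and 0.52 in exp2, and the rises numbered 3 without the withdrawn exp2 or the fed exp1 array, and 12 without the withdrawn exp1 array. Gbp4, an interferon-inducible GTPase, shows that spread, with 7.14 and 7.22 in the fed arrays and 7.90 and 8.48 in the withdrawn ones. Of 12 genes of MHC class II presentation 4 rose, among them H2-Oa (0.75 ± 0.09), but 2 without the fed exp2 array. Of 13 Notch targets 2 fell, near the share of all genes, 11.5%. These were Lfng (-1.57 ± 0.16) and Nrarp, the latter not passing without the withdrawn exp2 or the fed exp1 array. Among 26 chromatin regulators 10 rose and 5 fell, or 6 and 2 without the withdrawn exp2 array and 5 and 2 without the fed exp1 array, with Kdm5b, a histone H3K4 demethylase, up by 1.03 ± 0.18 and the methyltransferase Ezh2 down by 0.40 ± 0.07.

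The same withdrawal without 4OHT asks how much of this effect depended on 4OHT. It used 4 other arrays, 3982 genes passed there (20.0%), 331 fell at least 2-fold (1.66%) and 56 rose at least 2-fold (0.281%). Of the 2294 genes that fell under 4OHT 1540 also fell without it, which is 67.1% of the first list and 88.0% of the 1750 falls without 4OHT (8.78% of all genes). The corresponding overlap of rises was 1688 genes, 66.1% of those under 4OHT and 75.6% of the 2232 without it (11.2% of all genes). Of the 575 falls of at least 2-fold 557 passed as falls without 4OHT. Mitotic genes had nearly the same median in both settings, -1.72 with and -1.75 without 4OHT, and FoxO targets 0.40 and 0.39. For ribosome biogenesis the medians were -1.21 and -0.65, and for nucleotide synthesis -1.63 and -1.11.

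The difference between the 2 withdrawal effects was tested directly. It passed for 137 genes (0.687%), 123 with the more negative effect under 4OHT (0.617%) and 14 with the more positive one (0.0702%). With the experiment as a block 449 passed, 367 and 82 in the 2 directions. The count ranged from 50 to 96 when 1 of the 8 arrays was left out, lowest without the fed exp2 array without 4OHT. It was 54 and 62 without the fed exp1 and exp2 arrays with 4OHT, 74 without the withdrawn exp2 array with 4OHT, and 59 and 55 without the withdrawn exp1 and exp2 arrays without 4OHT. Of the 123 genes 104 passed as falls under 4OHT and 32 passed as rises without it, against 11.5% and 11.2% of all genes. The test that chose the 123 genes used the same 8 arrays and favours both calls, so these counts only describe the genes. Myc stood first. Without 4OHT it read 12.88 and 12.86 in fed and 12.10 and 12.05 in withdrawn cells, a difference of -0.80, and the effect under 4OHT minus that without it was -2.47 (adjusted p = 3.05e-05). Srm had the same pattern, with 12.30 and 12.36 in fed and 11.14 and 10.90 in withdrawn cells without 4OHT, a difference of -1.31. Dctd and Ppa1 differed by -1.22 and -1.81 without 4OHT. In all 4 genes the fed arrays were close with and without 4OHT, and the withdrawn arrays were lower with it. Of the ribosome biogenesis genes 9 of 44 passed this test and of the nucleotide synthesis genes 7 of 29, all with the more negative effect under 4OHT.

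Nrp2, a receptor of semaphorins and vascular endothelial growth factor, fell from 8.89 and 8.76 to 7.92 and 7.91 under 4OHT, and read 10.06 and 9.91 in fed and 10.70 and 10.76 in withdrawn cells without it (difference of the effects -1.66, adjusted p = 4.62e-05). Vegfa, the growth factor itself, fell by 1.62 ± 0.17 under 4OHT and differed by -0.03 without it. Igfbp4, a binding protein of insulin-like growth factors, fell by 1.13 ± 0.09 under 4OHT against -0.17 without, and Vpreb1 differed by -0.46 against 0.29. Vav3 differed by -0.53 under 4OHT and 0.39 without. Cxcr5 read 6.49 and 6.26 in fed cells without 4OHT, about 2 log2 units below fed cells with it, and 5.46 and 5.51 in withdrawn ones, so it fell there too (-0.89, adjusted p = 0.00299), and of the 24 h arrays those of fed cells with 4OHT alone lay above the median of all values. In the other direction, Nuggc read 6.44 to 6.51 on the 4 arrays without 4OHT, between 7.50 and 7.52 in fed cells with 4OHT and between 8.66 and 8.88 in withdrawn cells with 4OHT. Its withdrawal effect was thus 1.26 with and 0.03 without 4OHT (difference 1.23, adjusted p = 0.00124). The Nuggc values without 4OHT lay below the median of all values, 7.33, and whether a change could be read there was not tested.

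**Figure D4:**
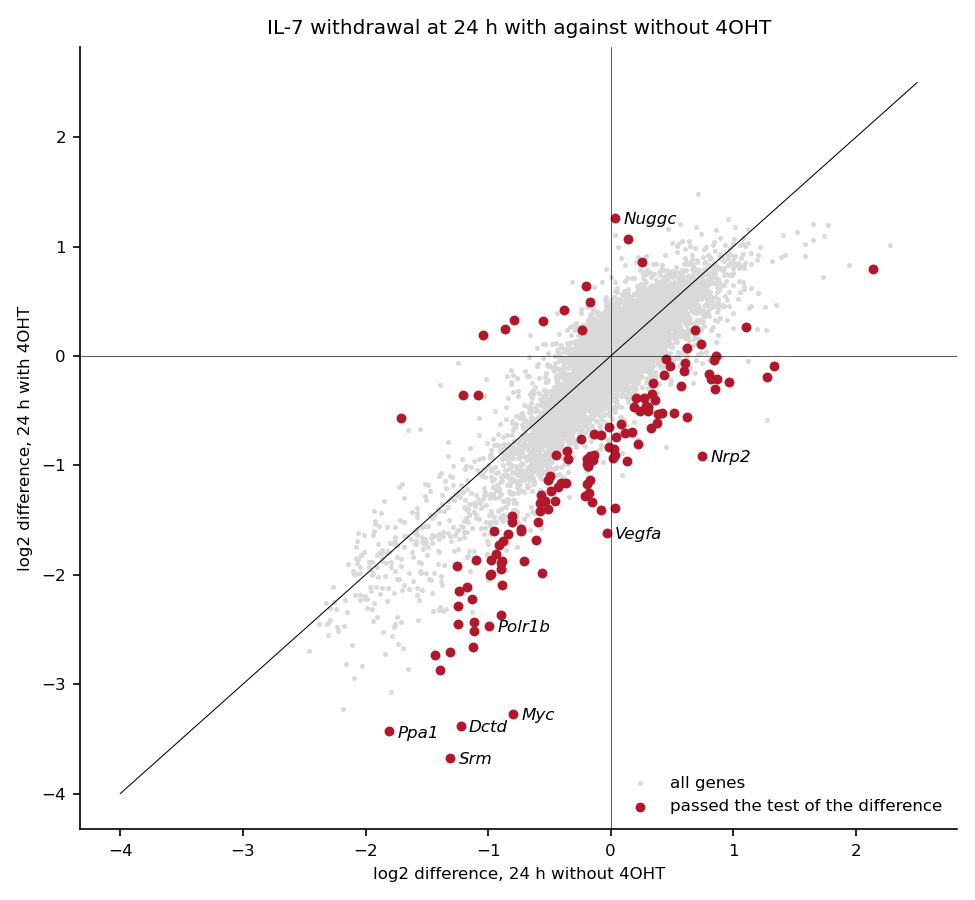
Difference on IL-7 withdrawal at 24 h without 4OHT (horizontal axis) and with 4OHT (vertical axis), in log2 units, with 1 point per gene and genes that passed the test of the difference coloured. Myc, Srm, Dctd, Ppa1, Nrp2 and Vegfa lie below the diagonal and Nuggc above it.

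As Ikaros is the factor that 4OHT activates here, the letters TGGGAA, the core of Ikaros sites, were searched in the same promoter windows. They stood on either strand in 131 of 473 genes with a window among the falls of at least 2-fold (27.7%), in 25.9% of those among all rises and in 27.1% of all genes with one. The share differed between lists: it was 50% in the polymerase list (12 of 24), 47.4% in the helicase list (9 of 19), 33.3% in ribosome biogenesis (13 of 39), 16.2% in mitosis (6 of 37) and 15.4% in nucleotide synthesis (4 of 26). No promoter is shown for this motif.

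The withdrawal of 6 h under 4OHT, also measured on 4 other arrays, shows when the effect was in place. There 2844 genes passed (14.3%), 1352 rising (6.78%) and 1492 falling (7.48%), and 272 fell at least 2-fold (1.36%). Of the 2294 genes that fell at 24 h 1068 had also fallen at 6 h, 46.6% of the later list and 71.6% of the earlier. Growth genes were already low at 6 h: 40 of 44 ribosome biogenesis genes had fallen, with a median of -1.44 against -1.21 at 24 h, and 14 of 18 tRNA synthetases, with -0.63 against -0.70. Polr1b differed by -2.44 at 6 h and -2.47 at 24 h. Myc read 13.30 and 13.18 in fed and 11.31 and 10.92 in withdrawn cells at 6 h, a difference of -2.13, so its effect was larger at 24 h.

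Of 46 mitotic genes 1 had fallen and 3 had risen at that time, with a median of 0.21, against 45 falls and a median of -1.72 at 24 h. Ncapg read 10.64 and 10.15 in fed and 10.79 and 10.27 in withdrawn cells at 6 h. The helicase list had a median of -0.15 at 6 h with 3 falls, and the polymerase list -0.045 with 3 falls. All 6 MCM2-7 genes had negative differences at 6 h, between -0.85 and -0.24. In the list of cyclins, their kinases and E2F factors 5 of 18 genes had fallen at 6 h. The cholesterol list likewise had 3 falls and a median of -0.024 at 6 h.

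The change of the effect from 6 h to 24 h passed its own test for 998 genes (5.01%), 727 with the more negative effect at 24 h (3.65%) and 271 with the more positive one (1.36%). With the experiment as a block 1972 passed, 1193 and 779 in the 2 directions, and after renewed quantile normalization the split was 808 to 531. The count was 603 and 659 without the fed exp1 and exp2 arrays of 24 h, 591 without the withdrawn exp1 array of 6 h and 658 without the fed exp2 array of 6 h. Among the 727 were 45 of 46 mitotic genes, 24 of 27 polymerase genes, 20 of 25 helicase genes and 12 of 27 histone genes. The 6 largest changes were in Fancd2, Shcbp1, Ncapg2, Kntc1, Mastl and Chek1. Fancd2, of the Fanconi repair pathway, differed by 0.15 at 6 h and -2.69 at 24 h. Kntc1, of the spindle checkpoint, differed by 0.27 and -2.48, and Ncapg2, of the second condensin, by 0.30 and -2.47. Mastl, the kinase that sustains mitosis, differed by 0.50 and -2.23.

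A few IL-7 targets had their larger effect early. Cish read 10.76 and 10.66 in fed and 7.63 and 7.82 in withdrawn cells at 6 h, a difference of -2.99, which exceeded that at 24 h by 1.85 log2 units (adjusted p = 2.19e-05). The withdrawn cells were near 7.5 at both times, and the fed cells of 24 h were about 2 units lower than those of 6 h. Bcl6 differed by 2.48 at 6 h and 1.20 at 24 h (adjusted p of the change = 0.000121), with withdrawn cells between 9.90 and 10.27 at both times and fed cells at 7.74 and 7.71 at 6 h. Socs2 and Ccnd2 differed by -1.49 and -2.71 at 6 h, and their change to 24 h did not pass (adjusted p = 0.517 and 0.622). Ccnd3 differed by 0.59 at 6 h and -0.40 at 24 h (adjusted p of the change = 0.00012), and Spn by 0.38 and -0.64.

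**Figure D5:**
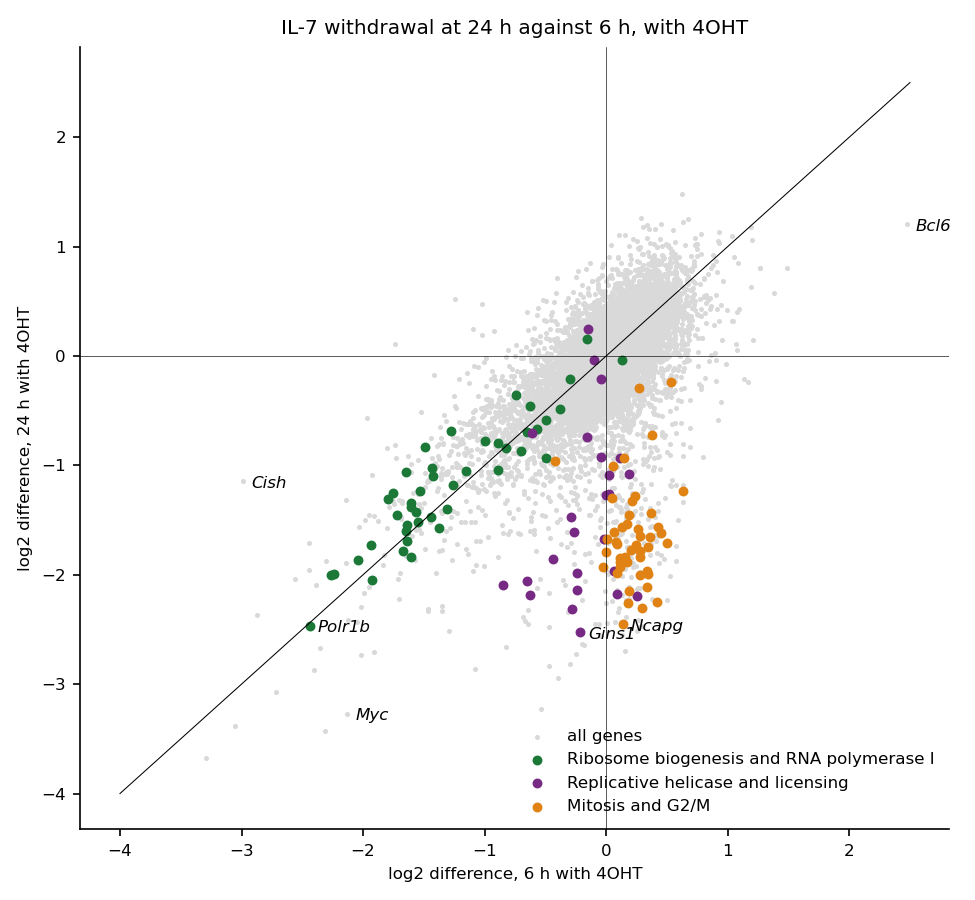
Difference on IL-7 withdrawal under 4OHT at 6 h (horizontal axis) and at 24 h (vertical axis), in log2 units, with 1 grey point per gene and the ribosome biogenesis, helicase and mitosis lists in colour. Ribosome biogenesis genes lie low at both times (medians -1.44 and -1.21), whereas mitotic genes lie near or above 0 at 6 h and low at 24 h (medians 0.21 and -1.72).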

How the data were processed

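The deposited values are log2 levels of 35556 probe sets of a mouse whole-transcript array, made from 150 ng of total RNA per the labels. Per the submitters' processing notes the software was Affymetrix Expression Console 1.1 with RMA, which corrects background, equalises arrays by quantiles and summarises probes. Further settings were not given in the sources used here. The values were used as deposited. RMA sets changes relative to the bulk of genes, and renewed quantile normalization moved the median difference from 0.058 to 0.027. Precision is limited by the number of arrays, and no signal over background was available for detection limits.

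Probe sets were named by the platform annotation: 21789 had 1 symbol, 1621 several and 12146 none, and 91 with a gene had an identifier that is not in the RefSeq table. The brightest of several probe sets was kept in 999 genes. List members lacking such a probe set were not analysed here.

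limma 3.58.1 in R 4.3.3 was fitted once to all 14 arrays with 7 group means (7 residual and 4.83 prior degrees of freedom), two-sided, with Benjamini-Hochberg adjustment over 19938 genes. It was also run on simulated arrays with known changes, with noise drawn independently for each array. That simulation left out the correlation between same-numbered arrays given below, so it does not test the fit under that correlation. With 2 arrays a group, p-values measure the spread between the experiments, pooled over groups. Labels give exp1 and exp2 as independent experiments, which pairs the arrays: deviations from group means of same-numbered arrays correlated in all 21 pairs of groups (0.124 to 0.631), and at 0.517 between the compared groups. The fit without the block was kept as the main design. The alternatives were the experiment block, the compared arrays only, no dim genes, renewed quantile normalization, means of probe sets, a trended variance and each array left out.

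The members and gene lists were chosen with earlier results of these data known. Genes named were the 12 largest passing rises and falls above the median of all values that moved the same way in both experiments, without predicted genes, immunoglobulin variable segments, olfactory and vomeronasal receptors, small RNAs and pseudogenes, up to 6 members of each list, selected IL-7 and B cell genes, and the 6 largest of each test of a difference. Further genes were named to account for short counts or to show promoters, after their values were seen. Promoter sequences came from RefSeq tables on GRCm38.p6 and matched 15614 genes by symbol.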

Additional observations from a re-analysis of the deposited data

Results flagged for a closer look

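No group holds more than 2 arrays, too few for a test of single deviating arrays. The withdrawal effect differed with and without 4OHT, by the limma test of the difference itself, in 137 genes. Among the genes named for it, the effect under 4OHT minus that without was -2.47 for Myc, -2.37 for Srm, -2.16 for Dctd, -1.62 for Ppa1 and -1.48 for Polr1b. It was -1.66 for Nrp2, -1.59 for Vegfa, -1.47 for Cxcr5, -0.96 for Igfbp4, -0.92 for Vav3, -0.75 for Vpreb1 and 1.23 for Nuggc.

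The effect changed between 6 h and 24 h under 4OHT, by the same kind of test, in 998 genes. The effect at 24 h minus that at 6 h was -2.85 for Fancd2, -2.77 for Shcbp1, -2.77 for Ncapg2, -2.75 for Kntc1, -2.73 for Mastl, -2.7 for Chek1 and -2.59 for Ncapg. It was -1.14 for Myc, -1.27 for Bcl6, -1.02 for Spn and -0.99 for Ccnd3, and 1.85 for Cish, whose fall was smaller at 24 h.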

How the results depend on the processing

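The count of genes that passed after 24 h without IL-7 under 4OHT, 4846, lay between 4135 and 6570 under the experiment block, the compared arrays alone, no dim genes, renewed quantile normalization, means of probe sets and a trended variance, and between 3257 and 4014 with 1 array left out. With the experiment as a block, which pairs the arrays, the tests of a difference passed 449 genes in place of 137 (with and without 4OHT) and 1972 in place of 998 (24 h against 6 h). With 1 array left out they passed 50 to 96 and 591 to 872. Those fits keep fewer arrays, and the cause of the other shifts was not tested. Of 263 named genes 257 passed, 202 of them under all 10 alternatives, and no direction reversed. The block changed no call among these 263, and Stat5a, Stat5b and Polr1d, which are not among them, did not pass without it and passed with it. Effects near the median SE of 0.0912 are at the limit of 2 arrays a group.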
